A study of Mus musculus with 36 samples.

Results

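UPPL primary bladder tumours were compared with BBN primary bladder tumours across 12818 genes. The members were chosen by their labels as primary tumours of these kinds and number 20 of the 36 libraries of the series: 9 UPPL and 11 BBN tumours. Per the labels, the UPPL mice carry a CreERT2 recombinase under the Upk3a promoter, floxed p53 (Trp53) and a Cre-activated luciferase at Rosa26, and they were untreated. The BBN mice have the genotype Ctrl and received N-butyl-N-(4-hydroxybutyl)nitrosamine, a carcinogen that causes bladder cancer in rodents. Strain, age and sex are not among the labels. Whether each tumour came from a separate mouse is not stated either, so the p-values measure the spread between these samples. RNA came from whole tumours, in which fewer cells of a type and less RNA per cell cannot be told apart.

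The urothelium that lines the bladder has basal, intermediate and superficial cells, and the superficial umbrella cells make uroplakins, the plaque proteins of which Upk3a encodes one. Cre driven by Upk3a therefore acts mainly in the differentiated layers, whereas a carcinogen carried in the urine reaches the whole lining. p53 is the tumour suppressor that halts or kills cells with damaged DNA, and its loss is common in invasive bladder cancer.

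Levels are given in deposited units, in which the 75th percentile of each library's values above 0 was scaled to 1000. Differences are UPPL minus BBN on the log2(value + 1) scale, with the standard error (SE) and the adjusted p of a limma fit over all genes tested (Benjamini-Hochberg, threshold 0.05). Trp53, the floxed gene, ran from 30.41 to 158.2 units (median 59.82) in the UPPL tumours and from 795.5 to 2266 units (median 1578) in the BBN tumours. The groups did not overlap, which is the direction the genotype label gives (log2 difference -4.41, SE 0.29, adjusted p = 3.0e-09). Upk3a itself did not pass, with 0 to 8508 units in UPPL and 0 to 635.1 units in BBN (log2 difference 3.42, SE 1.88, adjusted p = 0.20).

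The libraries held 9.29 to 17.93 M recovered reads, with no gap between the groups in depth. In 3 of them (BBN962, UPPL1595 and UPPL1597) the most frequent low value corresponded to 15 to 17 reads, against 5 at the median, so their low values are coarse. From genes of the sex chromosomes, 6 of 9 UPPL and 6 of 11 BBN libraries read as male. Epithelial markers were abundant in both groups, at 132000 to 428000 units summed over 10 genes in UPPL and 172700 to 297100 units in BBN. The first principal component held 20.4 percent of the variance and separated the groups, with scores of 25.2 to 130.0 in UPPL and -79.4 to -20.0 in BBN. By the SD of single genes, UPPL tumours varied more among themselves. The median gene had an SD of 0.622 on the log2 scale in UPPL and 0.548 in BBN. The SD was larger in UPPL for 59.3 percent of genes. Rank correlations between tumours went the other way. A tumour's median correlation with the others of its group was 0.905 at the median in UPPL and 0.888 in BBN.

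Of the 12818 genes tested, 732 (5.71 percent) were higher and 1639 (12.8 percent) were lower in UPPL tumours. The higher genes had a median log2 difference of 1.06, and 191 of them differed at least 4-fold. The lower genes had a median of -1.01, and 408 of them differed at least 4-fold. The median over all tested genes was itself below 0, at -0.19, so a gene near that value was not shifted relative to the rest. Both other scalings moved this median closer to 0, with more even counts: quantile normalization (median -0.04) gave 938 higher and 987 lower, and median-of-ratios scaling (median -0.07) gave 1086 and 1147. An edgeR fit of recovered reads, which changes the input and the model as well as the scaling, gave 1098 and 893 (median -0.04). The higher share of all calls thus moved from 30.9 percent to between 48.6 and 55.1 percent.

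Complete separation was less common than passing the test. Every UPPL tumour lay above every BBN tumour in 38 genes (0.296 percent) and below every BBN tumour in 50 genes (0.39 percent). These counts depended on single tumours. Without UPPL1591, UPPL1595 or UPPL1694 the first was 61, 58 or 73, and without UPPL1591 or UPPL1612 the second was 93 or 107. A set of 1322 genes (520 higher and 802 lower) passed in the limma fit, under both other scalings and in all 20 fits that left out 1 tumour.

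The 15 largest rises among those 1322 genes, with a mean of at least 100 units in UPPL, were not all genes of umbrella cells. They comprised the uroplakin genes Upk1a and Upk3b, the conjugating enzyme gene Ugt2b34, the fatty acid binding protein gene Fabp4, the meiotic cohesin gene Smc1b, the neuronal genes Ctnnd2 (delta-catenin) and Nrn1 (neuritin), Vsig2, the lipid flippase gene Atp8a2, the thiamine transporter gene Slc19a3, the gasdermin gene Gsdmc3, the potassium channel gene Kcnu1, and Hoxa9, Hoxa10 and Hoxa11. Ugt2b34 showed the largest rise, from 0 to 1919 units (median 61.69) in BBN to 1457 to 17320 units (median 9145) in UPPL, a log2 difference of 6.67 (SE 1.29, adjusted p = 0.0017). Only the top of the BBN range reached the UPPL tumours. Fabp4 ran from 6437 to 32420 units (median 9917) in UPPL and from 0 to 1628 units (median 304.3) in BBN, without overlap (log2 difference 5.97, SE 0.99, adjusted p = 0.00049). Fabp4 is also an adipocyte gene. Of 7 other adipocyte markers, Lep, Plin1 and Retn were at 0 in all tumours of both groups. Adipoq, Cfd and Cidec were at 0 in all BBN tumours and each was above 0 in 1 UPPL tumour, at 4.08, 25.5 and 10.2 units. Lipe, which other cells express too, ran from 120.8 to 357.2 units in UPPL and from 113.9 to 416.9 units in BBN, and these are also the ends of the sums over the 7. Slc19a3 also separated completely, at 28.22 to 317.7 units in UPPL against 0 to 20.93 units in BBN (5.26, SE 0.70, adjusted p = 0.00012).

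Atp8a2, which encodes a flippase best known from neurons and photoreceptors, was listed at 0 in most BBN tumours. It ran from 0 to 11.78 units (median 0) there and from 18.06 to 285.9 units (median 126.5) in UPPL (log2 difference 5.44, SE 0.71, adjusted p = 0.00010). Ctnnd2 ran from 104.1 to 1418 units in UPPL and from 0 to 168.9 units in BBN (5.48, SE 0.89, adjusted p = 0.00044). The highest BBN tumour reached into the UPPL range of Ctnnd2. Nrn1 behaved alike, with 57.56 to 1245 units against 0 to 403 units (5.45, SE 1.04, adjusted p = 0.0015). Vsig2, a membrane protein of the immunoglobulin superfamily, was at 1653 to 3937 units in UPPL and at 0 to 1879 units in BBN (5.45, SE 1.10, adjusted p = 0.0023). Gsdmc3 reached 8975 units in UPPL and 3786 units in BBN, and it has near-identical neighbours between which reads could be split. With edgeR on recovered reads, Gsdmc3 (adjusted p = 0.060), Kcnu1 (0.060) and Hoxa9 (0.087) no longer passed.

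Of the 15 largest falls, 14 are described. They held the homeobox gene Hoxb9, secreted inhibitors (Sfrp1 of Wnt signalling and Fst of activin), squamous epithelial genes (Lgals7 and Krt17), the Hedgehog-pathway gene Evc2 of the cilium, the protease gene Prss12 (neurotrypsin), the adhesion genes Emb (embigin) and Lphn3 (latrophilin), the exchanger gene Slc24a3, the proton channel gene Otop3, and Phyhipl, Epdr1 and Plekhh2. Plekhh2 ran from 0 to 18.62 units in UPPL and from 37.46 to 429.5 units in BBN, without overlap (log2 difference -4.80, SE 0.61, adjusted p = 7.1e-05). Prss12 also separated, at 0 to 34.57 units against 47.30 to 809.8 units (-4.95, SE 0.71, adjusted p = 0.00020).

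Emb, an immunoglobulin-family partner of lactate transporters, ran from 0 to 90.78 units (median 23.92) in UPPL and from 60.81 to 3553 units (median 749.1) in BBN (log2 difference -4.90, SE 0.76, adjusted p = 0.00033). The groups overlapped only at their ends. Lgals7, a galectin of stratified epithelia, spanned 0 to 2028 units in UPPL and 126.6 to 24240 units in BBN (-6.48, SE 1.30, adjusted p = 0.0022). Sfrp1 was at 0 to 1222 units (median 4.785) in UPPL and at 288.4 to 1639 units (median 694.8) in BBN (-5.73, SE 1.00, adjusted p = 0.00076). The highest UPPL values of Sfrp1 and Evc2 lay well inside the BBN range. With edgeR on recovered reads, Sfrp1 (adjusted p = 0.12), Evc2 (0.27), Slc24a3 (0.062) and Otop3 (0.057) no longer passed, and Otop3 also failed without the 3 coarse libraries.

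**Figure D1:**
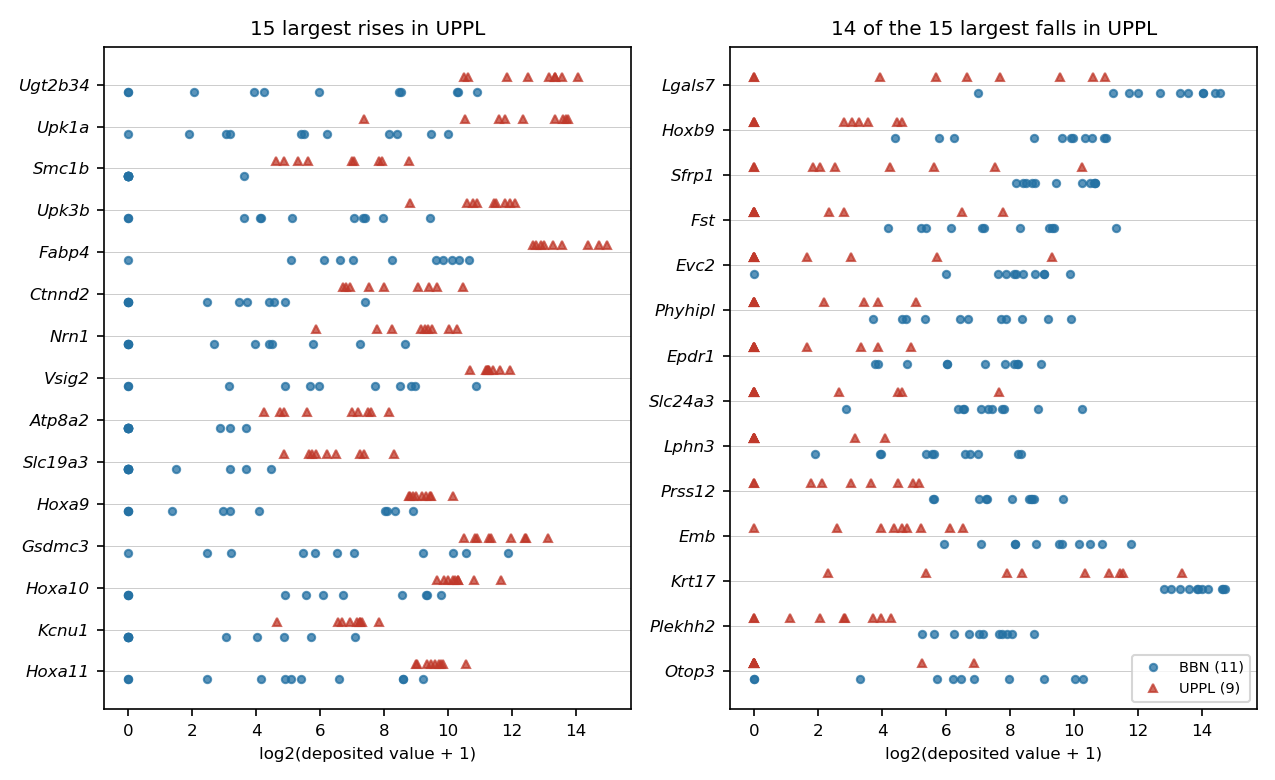
Each point is 1 primary tumour, placed by its log2(deposited value + 1) on the horizontal axis, for the 15 largest rises (left) and 14 of the 15 largest falls (right) in UPPL. Triangles are the 9 UPPL tumours and circles the 11 BBN tumours. Fabp4, Smc1b, Atp8a2 and Slc19a3 separate completely on the left and Prss12 and Plekhh2 on the right.

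Ranked by the smallest p instead, with clone and predicted symbols skipped, the same genes gave a different picture, in which position on the chromosome recurred. Of the 6 leading higher genes, Nup50, Smc1b and Fam118a are neighbours of Upk3a on chromosome 15, and Snap29 lies on chromosome 16. Among the leading lower genes, Mta1, Bzw2, Rps7 and Snw1 lie on chromosome 12 and Trp53 does not. Mta1, a subunit of a chromatin remodelling complex, ran from 320.5 to 630.4 units (median 449.5) in UPPL and from 928.1 to 1656 units (median 1220) in BBN (log2 difference -1.41, SE 0.14, adjusted p = 5.8e-06). Bzw2, Rps7 and Snw1 separated the groups as well, with log2 differences of -1.63, -1.59 and -0.99. Snap29, a vesicle fusion protein, ran from 939.1 to 3703 units in UPPL and from 599.5 to 1161 units in BBN (1.44, SE 0.19, adjusted p = 0.00012), and its lowest UPPL value was that of tumour UPPL1694.

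The genes next to Upk3a were examined after these values had been seen. The 4 nearest tested neighbours, with Upk3a in their midst, were higher in UPPL, in the order Nup50, 5031439G07Rik, Upk3a, Fam118a and Smc1b. Nup50, a nuclear pore protein gene, ran from 5732 to 32490 units (median 15960) in UPPL and from 1374 to 2370 units (median 1508) in BBN (log2 difference 3.34, SE 0.23, adjusted p = 3.0e-09). The uncharacterized 5031439G07Rik ran from 6214 to 52290 units (median 17490) against 775.4 to 1737 units (median 1199), a log2 difference of 4.00 (SE 0.27, adjusted p = 3.0e-09). Fam118a ran from 342.7 to 8578 units (median 2384) against 33.17 to 286.2 units (median 158.7), a log2 difference of 3.81 (SE 0.52, adjusted p = 0.00013). Each of them lay higher in every UPPL tumour than in any BBN tumour.

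Smc1b, which encodes a cohesin subunit used in meiosis, was listed at 0 in all BBN tumours except BBN965, at 11.26 units. In UPPL it ran from 23.39 to 439.0 units (median 125.9; log2 difference 6.23, SE 0.65, adjusted p = 5.9e-06). UPPL1595 had the lowest values of all 4 neighbours and UPPL1541 the highest values of 5031439G07Rik and Smc1b. Upk3a was listed at 0 in UPPL1595 and in UPPL1591, where Nup50 stood at 14020 units, and at 2.611 units in UPPL1598, which had the highest Nup50 (32490 units). It ran closer to Fam118a: both had their 4 highest UPPL values in UPPL1541, UPPL1612, UPPL1694 and UPPL1695 and their lowest in UPPL1591 and UPPL1595. Of the other genes within 10 tested places on either side, none was higher, and Parvg (-2.06, SE 0.67, adjusted p = 0.036) and Fbln1 (-1.66, SE 0.51, adjusted p = 0.028) were lower.

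**Figure D2:**
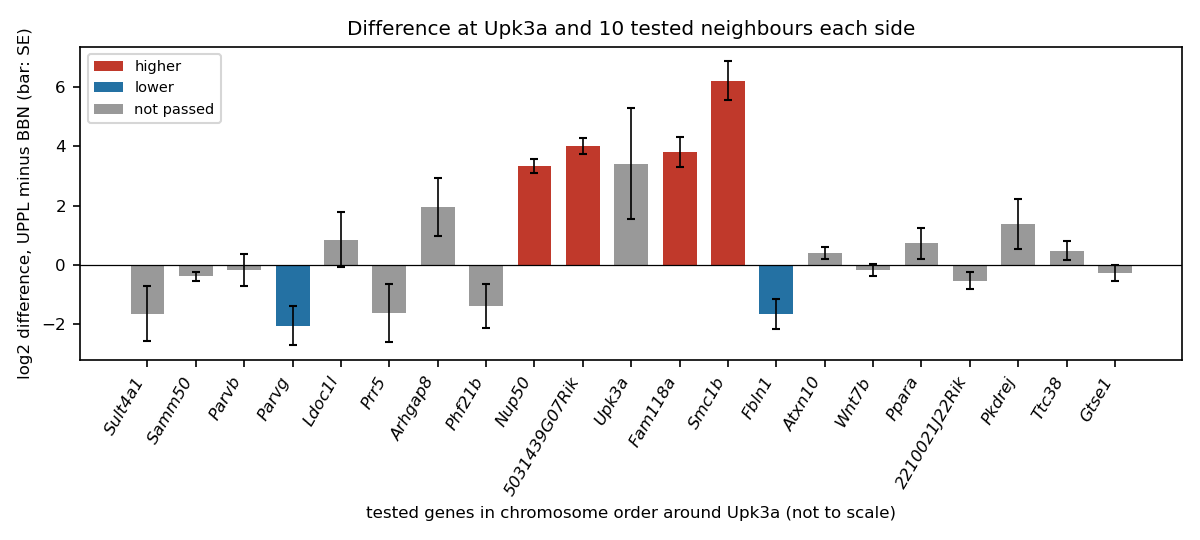
Bars give the log2 difference, UPPL minus BBN, of Upk3a and the 10 tested genes on each side of it in chromosome order, with lines of 1 SE. Colours mark genes that were higher, lower or did not pass. The tall block holds Nup50 (3.34), 5031439G07Rik (4.00), Upk3a (3.42, not passed), Fam118a (3.81) and Smc1b (6.23), and the genes beyond it fall back on both sides.

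Nup50, 5031439G07Rik and Fam118a of the block were also high in UPPL cells grown without the tumour. The UPPL culture had 21940 units of Nup50 and 20460 units of 5031439G07Rik, and the 4 tumours grown from that line had 19390 to 21620 and 17150 to 17920 units. BBN, MB49 and KT cultures and line-derived tumours had 1207 to 2284 units of Nup50 and 673.9 to 2151 units of 5031439G07Rik. Fam118a was at 1711 units in the UPPL culture and at 1213 to 1621 units in its line-derived tumours. The BBN, MB49 and KT libraries of these kinds had at most 313.8 units of it. Smc1b was lower in the UPPL culture, at 13.07 units, than in any UPPL primary tumour. Its 4.763 to 22.35 units in the UPPL line-derived tumours overlapped the 0 to 12.49 units of MB49 line-derived tumours. Upk3a was at 93.37 units in the UPPL culture and reached 113.3 units in a KT culture. The genotype label of the UPPL culture reads Ctrl, while all 9 UPPL primary tumours are labelled with Upk3a-CreERT2 and no BBN tumour is, so the allele and the tumour model cannot be told apart in the primary tumours. The labels do not say how far the DNA around Upk3a extends in that allele.

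Grouping the tested genes by chromosome, also done after their values had been seen, showed where many of the lower genes lie. Chromosome 12 held 433 tested genes, of which 237 (54.7 percent) were lower in UPPL and 8 were higher, with a median log2 difference of -0.88. It thus held 3.38 percent of the tested genes, 14.5 percent of the lower genes and 24 of the 50 genes in which every UPPL tumour lay below every BBN tumour. Across the other 19 chromosomes 1398 of 12352 genes (11.3 percent) were lower. Of the chromosome 12 genes that were lower, 189 had log2 differences between -1.5 and -0.5. Under the alternatives 168 to 257 genes of chromosome 12 were lower.

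Chromosome 16 showed the reverse, with 90 of 417 genes (21.6 percent) higher, 19 lower (31 without UPPL1598) and a median log2 difference of 0.36. The number higher was 60 to 133 under the alternatives. Chromosome 6, which carries the Hoxa genes, followed with 82 of 619 genes higher (13.2 percent), and the X chromosome with 41 of 396 (10.4 percent; 71 with edgeR). Chromosome 10 held the second largest share of lower genes, 133 of 591 (22.5 percent), which fell to 65 with edgeR, 86 under quantile normalization and 85 with median-of-ratios scaling.

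The shifts differed from tumour to tumour. For each tumour, the deviation of a chromosome was taken as the median over its genes of the log2 value minus the BBN mean (for a BBN tumour, the mean of the other 10), after removing the tumour's own median over all genes. On chromosome 12, 8 of 9 UPPL tumours lay between -1.02 and -0.31, and the ninth, UPPL1612, at -0.07. BBN tumours lay between -0.13 and 0.32 on the same chromosome. On chromosome 16, 8 of 9 UPPL tumours lay between 0.33 and 1.24, with UPPL1694 at -0.28, and BBN tumours lay between -0.51 and 0.15.

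Other chromosomes shifted in subsets of the UPPL tumours. Chromosome 3 was at -0.96 in UPPL1597 and -0.70 in UPPL1541, chromosome 4 at -0.72 in UPPL1598 and -0.56 in UPPL1544, and chromosome 14 at -0.71 in UPPL1595 and -0.665 in UPPL1597. Chromosome 10 was at -0.34 or below in UPPL1544, UPPL1595, UPPL1598 and UPPL1694. Chromosome 6 was above 0 in all UPPL tumours, from 0.09 to 0.56. With a threshold of 0.3 in either direction over 20 chromosomes, a UPPL tumour had 1 to 9 shifted chromosomes (median 5, 48 in all). A BBN tumour had 0 to 5 (median 0, 9 in all), and BBN963 held 5 of the 9. The reference is the mean of BBN tumours, so UPPL tumours differ from it by model as well as one by one. DNA was not measured in these libraries, and the source of the chromosome pattern was not tested.

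**Figure D3:**
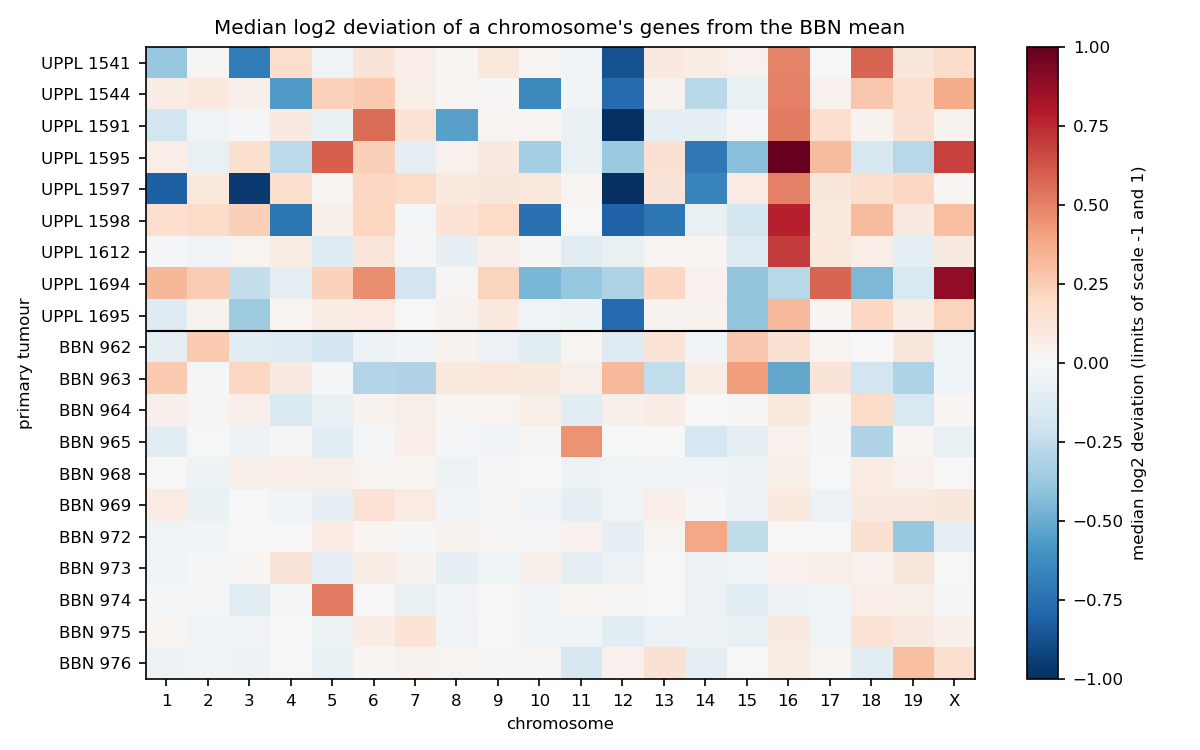
Each cell is the median log2 deviation of a chromosome's tested genes from the BBN mean in 1 primary tumour, with tumours as rows (UPPL above the line, BBN below) and chromosomes as columns. Blue is lower and red higher, and colours saturate at -1 and 1. The column of chromosome 12 is blue in 8 UPPL tumours and that of chromosome 16 red in 8, while most BBN cells are near 0.

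Runs of adjacent tested genes that passed in the same direction were found mostly on chromosome 12, which held 14 of the 18 runs of at least 5 genes. The longest on that chromosome had 9 genes, for example Ddx1 to Pdia6, a run that includes E2f6 and Rock2. Outside chromosomes 12 and 16, the runs were at 6 genes of chromosome 3 around Mcl1 and at the Hoxa and Hoxd clusters. Hoxa7, Hoxa9, Hoxa10, Hoxa11, Hoxa11as, Hoxa13, Hibadh and Tax1bp1 formed a higher run of 8 genes with a median log2 difference of 4.06. Hoxd10, Hoxd9, Hoxd8, Hoxd3 and Hoxd4 formed a lower run of 5 genes with a median of -2.56. These genes are named by their place and were chosen after their values had been seen.

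Hox genes encode the homeodomain factors that give embryonic tissues their position along the body axis, and the order of genes in a cluster follows that axis. The deposited values cover 39 Hox genes, and of the 23 tested, 5 rose, 8 fell and 10 did not pass. The direction followed the cluster in the primary tumours. In cluster A, 5 of 9 genes were higher and none lower (median log2 difference 3.11). In cluster B, 3 of 8 were lower and none higher (median -1.42), and in cluster D, 5 of 6 were lower and none higher (median -2.80). The higher count was 3 with edgeR. The lower count of 8 was 5 without BBN973, UPPL1541 or UPPL1598, 4 under quantile normalization and 3 with the stricter filter on low values.

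Within cluster A only the 5 genes from Hoxa7 to Hoxa13 passed, and Hoxa2 to Hoxa5 did not. Hoxa10 ran from 811.3 to 3237 units (median 1197) in UPPL and from 0 to 876.1 units (median 67.51) in BBN (log2 difference 4.86, SE 1.19, adjusted p = 0.0078). Hoxa13, the last gene of the cluster and a factor of the urogenital sinus, ran from 77.88 to 616.4 units (median 154.3) in UPPL and from 0 to 88.82 units (median 9.901) in BBN (4.28, SE 0.82, adjusted p = 0.0016). No UPPL tumour was listed at 0 in these genes, whereas BBN tumours reached down to 0. Hoxa9 lay between 440.6 and 1151 units in UPPL. In BBN it was listed at 0 in BBN963, BBN974 and BBN976 but reached 480.9 units in BBN965.

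Hoxb9 went the other way, from 0 to 23.46 units (median 7.384) in UPPL and from 20.20 to 2051 units (median 967.7) in BBN (log2 difference -6.45, SE 0.89, adjusted p = 0.00016). BBN tumours again differed among themselves. The 3 BBN tumours with the lowest Hoxb9 (BBN968, BBN962 and BBN965, at 20.20, 53.90 and 75.45 units) were 3 of the 4 BBN tumours with the highest Hoxa9. BBN973 was high in both, at 784.9 units of Hoxb9 and 270.8 units of Hoxa9.

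**Figure D4:**
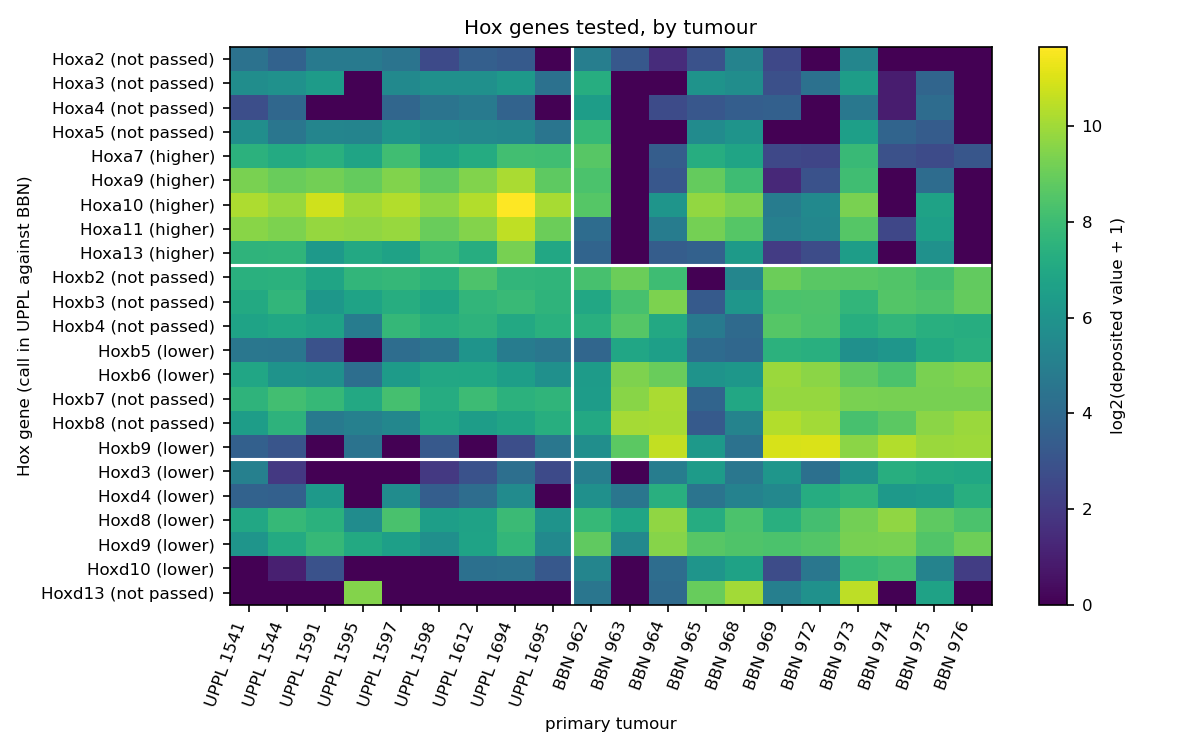
Colours give log2(deposited value + 1) of the 23 tested Hox genes in each primary tumour, ordered by cluster (A, B and D between the white lines) and position, with UPPL tumours to the left and BBN tumours to the right. Hoxa9 to Hoxa13 are bright in all 9 UPPL tumours and dark in BBN963, BBN974 and BBN976, and Hoxb9 is dark in every UPPL tumour.

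Among 39 tested developmental transcription factors outside the Hox clusters, 3 were higher (Gata2, Tbx2 and Msx2) and 8 were lower (5 with the stricter filter), with a median log2 difference of -0.77. The higher count was 5 without BBN975 and under 3 other settings. The lower factors included Pax9, Msx1 and Dlx5, which pattern pharyngeal, craniofacial and limb tissue. Pax9, on chromosome 12, was listed at 0 to 2.257 units in UPPL and at 3.617 to 382.0 units in BBN, without overlap (-5.42, SE 0.76, adjusted p = 0.00019). The values nearest each other, 2.257 and 3.617 units, are of a few reads. No UPPL tumour reached the floor of the filter, so Pax9 was tested through its BBN values alone. It was tested in only 11 of the 20 fits without 1 tumour. Msx1 ran from 0 to 12.62 units in UPPL and from 11.70 to 113.6 units in BBN (-4.43, SE 0.64, adjusted p = 0.00020). Dlx5 reached 5.981 units in UPPL and 166.9 units in BBN (-4.18, SE 0.76, adjusted p = 0.0010). Like Pax9, Dlx5 stayed below the floor of the filter in every UPPL tumour, so it too was tested through its BBN values alone.

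Signalling lists were described by ligand, receptor, inhibitor and target. Counts in these and the later lists stand beside shares over all genes of 5.71 percent higher and 12.8 percent lower. In TGF-beta, BMP and activin signalling, which restrains epithelial growth and drives matrix deposition, none of 11 receptors passed. Of 13 ligands, Gdf15, a stress-induced cytokine, was higher and Tgfb3 and Bmp1 were lower. Antagonists and latent binding proteins were lower in 6 of 11 (median log2 difference -1.54), among them Fst, Ltbp4, Ltbp2, Ltbp1 and Fstl3. That count was 4 to 7 in the fits without 1 tumour and 3 with the stricter filter. Fst, which sequesters activin, was listed at 0 to 220.2 units (median 0) in UPPL and at 17.18 to 2586 units (median 146.1) in BBN (-5.37, SE 1.09, adjusted p = 0.0023). Ltbp4, which anchors latent TGF-beta to the matrix, ran from 463.5 to 2447 units against 1200 to 9778 units (-1.54, SE 0.34, adjusted p = 0.0038). Tgfb3 and Ltbp2 lie on chromosome 12.

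In Wnt signalling, in which secreted ligands stabilize beta-catenin, the receptor gene Fzd1 was lower, at 132.2 to 617.1 units in UPPL and 614.5 to 2228 units in BBN (log2 difference -1.37, SE 0.26, adjusted p = 0.0014). Only the ends of its ranges met. None of 10 Wnt target genes passed, although their median was -0.92, and 3 single-tumour omissions (BBN968, BBN974 or UPPL1694) brought 1 of them past the threshold. Among Notch receptors and ligands, 2 of 8 were lower (1 without the coarse libraries) and none higher. Jag2, a Notch ligand gene on chromosome 12, separated completely, at 580.1 to 995.9 units in UPPL and 1137 to 3499 units in BBN (-1.08, SE 0.20, adjusted p = 0.0013). In the Hedgehog pathway 3 of 9 genes were lower (1 under quantile normalization): Gli3 (adjusted p = 0.0080), Ptch1 (0.024) and Gas1 (0.027), all on chromosome 13. The ligand gene Shh was higher, at 158.9 to 926.8 units in UPPL and 0 to 574.5 units in BBN (log2 difference 3.38, SE 1.15, adjusted p = 0.043), a call that was lost in 12 of the 20 fits without 1 tumour and with edgeR (adjusted p = 0.14).

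ERBB receptors drive urothelial growth when bound by ligands of the EGF family. Their receptor genes did not pass, whereas ligand and inhibitor genes did in both directions. Tgfa, a ligand gene of the EGF receptor, ran from 2022 to 2839 units (median 2296) in UPPL and from 977.5 to 1919 units (median 1573) in BBN, a small but complete separation (log2 difference 0.63, SE 0.12, adjusted p = 0.0014). Nrg1, a ligand gene of ERBB3 and ERBB4, was lower, at 1.998 to 499.4 units against 265.8 to 1883 units (-2.66, SE 0.69, adjusted p = 0.011). Lrig1, which promotes degradation of ERBB receptors, was at 0 to 120.4 units in UPPL and at 111.5 to 1060 units in BBN (-4.05, SE 0.84, adjusted p = 0.0027). The Lrig1 and Nrg1 calls held in each fit without 1 tumour.

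Of 35 genes of the PI3K, AKT and mTOR pathway, which relays growth factor signals to metabolism and translation, 9 were lower, none was higher and 26 did not pass (median log2 difference -0.19, that of all genes). The lower count was 5 without the 3 coarse libraries and with edgeR. Akt1, on chromosome 12, ran from 1310 to 2887 units in UPPL and from 3226 to 4806 units in BBN (-0.88, SE 0.13, adjusted p = 0.00021). Sgk3, an AKT-related kinase gene, also separated, at 6.964 to 361.8 units against 388.8 to 926.8 units (-2.46, SE 0.50, adjusted p = 0.0024). The insulin receptor substrate gene Irs1 (-2.56, SE 0.47, adjusted p = 0.0012) overlapped between the groups at the ends of its ranges. Akt1, Sgk3 and Irs1 passed in every fit without 1 tumour.

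Igf2r, the receptor gene that clears IGF2, was higher, at 2186 to 8966 units in UPPL and 798.0 to 3574 units in BBN (log2 difference 1.13, SE 0.28, adjusted p = 0.0087). Genes of the RB pathway and the G1 cyclins gave 7 lower of 26 and none higher, a count that was 4 without UPPL1541 and 2 to 3 under several other settings. Of 34 genes of S phase and mitosis, 1 was lower: Cdc20, an activator of the anaphase-promoting complex, at 267.8 to 630.9 units in UPPL and 551.9 to 1978 units in BBN (-1.02, SE 0.24, adjusted p = 0.0067). Without BBN975, UPPL1598 or UPPL1694, 2 or 3 of them were lower. Of 64 DNA repair genes 7 were lower, a smaller share than the 12.8 percent over all genes (4 without UPPL1597 and 2 to 3 under both other scalings, with edgeR and without the coarse libraries), led by Xrcc5, the large subunit gene of Ku, at 308.4 to 1065 units against 950.9 to 2108 units (-0.97, SE 0.20, adjusted p = 0.0025).

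Cytosolic ribosomal protein genes had the largest share of lower members among the 51 lists with at least 5 members tested. Of 74 tested, 49 were lower, none was higher and 25 did not pass, against 12.8 percent lower over all genes, with a median log2 difference of -0.76. Their summed level was 137000 to 339500 units (median 205700) in UPPL and 224600 to 403600 units (median 336800) in BBN, so the sums overlapped. The lower count was 39 to 58 without any 1 tumour, 28 with edgeR and none was higher in any setting run. Rps7, on chromosome 12, ran from 331.0 to 921.5 units in UPPL and from 1020 to 2366 units in BBN (-1.59, SE 0.18, adjusted p = 1.3e-05). Rpl3, on chromosome 15, ran from 258.1 to 520.3 units against 560.6 to 1058 units (-1.02, SE 0.16, adjusted p = 0.00035). Rps23 and Rps20 followed with log2 differences of -1.10 and -1.18. Ribosomal protein genes have many processed copies in the mouse genome, so reads could be split among them and single levels are uncertain.

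Respiratory chain genes gave 11 lower and 1 higher of 78, near the background share, and 0 lower with edgeR, 6 without UPPL1595 and 7 without UPPL1598. Among 20 genes of the unfolded protein response 5 were lower (3 without BBN964, BBN972, UPPL1541, UPPL1597 or UPPL1694, and 2 with edgeR), led by the disulfide isomerase gene Pdia6 of chromosome 12, at 1013 to 2926 units in UPPL and 2460 to 7015 units in BBN (log2 difference -1.14, SE 0.20, adjusted p = 0.00083). Slc1a5, a glutamine transporter gene, was at 47.95 to 609.4 units in UPPL and at 738.7 to 1547 units in BBN, without overlap (-1.64, SE 0.33, adjusted p = 0.0021). Vldlr, a lipoprotein receptor gene, was higher at 249.4 to 2266 units against 79.78 to 637.0 units (1.86, SE 0.41, adjusted p = 0.0041). Of the 18 clock genes, Npas2 was higher (1.42, SE 0.36, adjusted p = 0.0096) and the others did not pass.

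In the detoxification and lipid lists that follow, rises outnumbered falls. UDP-glucuronosyl transferases attach glucuronic acid to drugs and carcinogens for excretion, and 3 of 6 were higher: Ugt2b34, Ugt2b35 and Ugt1a6a. Ugt2b35 reached 220.3 units in UPPL and 12.13 units in BBN (log2 difference 3.87, SE 0.94, adjusted p = 0.0073). These genes belong to families of close relatives that can share reads. Among glutathione transferases, which conjugate electrophiles, 7 of 22 were higher and 2 were lower, with 5 to 10 higher in the fits without 1 tumour and 4 without the coarse libraries. Gstm1 ran from 6860 to 44430 units (median 20140) in UPPL and from 156.1 to 8737 units (median 4521) in BBN (3.06, SE 0.66, adjusted p = 0.0033). Mgst3, a membrane-bound relative, separated completely at 2215 to 3620 units against 178.7 to 1926 units (1.42, SE 0.33, adjusted p = 0.0056).

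Aldh3b2, an aldehyde dehydrogenase gene, ran from 1701 to 5542 units in UPPL and from 199.8 to 1468 units in BBN, without overlap (log2 difference 2.60, SE 0.38, adjusted p = 0.00022). Akr1b8, an aldo-keto reductase gene, ran from 4279 to 21340 units against 262.4 to 7677 units (2.13, SE 0.47, adjusted p = 0.0041). Both remove reactive aldehydes. Of 22 cytochrome P450 genes and their reductase, 3 were higher and 2 lower. The higher count was 1 with the stricter filter, and the lower count was 1 without BBN963, BBN964, BBN965, BBN969, BBN973, BBN974, BBN976 or UPPL1541 and under 6 other settings. Cyp2b10, a phenobarbital-inducible P450, ran from 40.96 to 2230 units in UPPL and from 0 to 242.5 units in BBN (4.07, SE 0.94, adjusted p = 0.0055), and the reductase gene Por from 4124 to 9754 units against 1988 to 8346 units (0.87, SE 0.22, adjusted p = 0.0093). The export pump gene Abcc5, on chromosome 16, was higher (1.81, SE 0.35, adjusted p = 0.0017) and the multidrug transporter gene Abcb1b was lower (-2.999, SE 0.63, adjusted p = 0.0028).

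In fatty acid synthesis and desaturation 5 of 19 genes were higher and none lower (median log2 difference 0.44), with 4 to 7 higher in the fits without 1 tumour. Me1, the malic enzyme gene that supplies NADPH, ran from 2800 to 6030 units (median 4390) in UPPL and from 335.7 to 2365 units (median 1363) in BBN, without overlap (1.96, SE 0.30, adjusted p = 0.00031). The desaturase genes Fads1 and Fads2 were higher by 2.03 (SE 0.48, adjusted p = 0.0065) and 3.35 (SE 0.91, adjusted p = 0.014). The summed level of the list was 42270 to 88080 units in UPPL and 24790 to 45990 units in BBN. Without UPPL1541 and BBN963, the tumours whose numbers the lines carry, 3 of the 5 were higher.

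Of 25 genes of lipid droplets, uptake and oxidation, 7 were higher and 4 lower. Plin2, which coats lipid droplets, ran from 1192 to 7091 units in UPPL against 533.5 to 1651 units in BBN (log2 difference 1.36, SE 0.31, adjusted p = 0.0047). Dgat2, which makes triglyceride, was higher by 1.67 (SE 0.38, adjusted p = 0.0051). Mgll, which breaks monoglyceride down, was lower, at 4.219 to 148.9 units in UPPL and 34.35 to 553.9 units in BBN (-2.46, SE 0.61, adjusted p = 0.0081). Without UPPL1541 and BBN963 the higher count was 4, and the lower count was 1 with edgeR and without the coarse libraries. In cholesterol synthesis 2 of 23 were higher, Hsd17b7 (1.81, SE 0.41, adjusted p = 0.0049) and Sc5d (0.89, SE 0.23, adjusted p = 0.010), and the count was 4 without BBN963 or BBN975 and 5 without UPPL1694. The share over all genes was 5.71 percent higher.

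Glycolysis genes were higher in 7 of 28 and lower in 1 (median log2 difference 0.49). The higher count was 4 without BBN964, BBN973, UPPL1541, UPPL1544, UPPL1597 or UPPL1598, and 3 without the coarse libraries. Hk2, the hexokinase gene of growing tissue, ran from 2636 to 8241 units in UPPL and from 690.3 to 3761 units in BBN (1.498, SE 0.27, adjusted p = 0.00097). Pgm2 was higher as well (1.03, SE 0.23, adjusted p = 0.0036). Slc16a1, a lactate transporter gene, was the lower member, at 82.54 to 2501 units in UPPL and 1130 to 7552 units in BBN (-2.10, SE 0.51, adjusted p = 0.0076). Emb, whose product pairs with such transporters, was among the largest falls above. Another lactate transporter gene, Slc16a3, went the other way and was among the 7 higher genes.

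Channels and pumps of the urothelium sense stretch and hold back urine. Of 32 tested, 5 were higher and 4 lower, against 5.71 percent higher and 12.8 percent lower over all genes. The lower share was thus near that of all genes. Trpv4, a stretch- and heat-gated calcium channel gene, ran from 877.0 to 2807 units (median 1825) in UPPL and from 152.8 to 757.4 units (median 375.7) in BBN, without overlap (log2 difference 2.05, SE 0.29, adjusted p = 0.00019). Kcnk1, a potassium leak channel gene, ran from 497.7 to 3330 units against 371.7 to 1692 units (1.32, SE 0.33, adjusted p = 0.0093), and Aqp9, a water and glycerol channel gene, was higher by 2.49 (SE 0.62, adjusted p = 0.0086). Another aquaporin gene, Aqp5, was lower, at 0 to 25.12 units in UPPL and 2.700 to 1416 units in BBN (-4.07, SE 0.99, adjusted p = 0.0074). The lower count was 2 without the coarse libraries and with the stricter filter.

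Nuclear receptors turn lipids and hormones into transcription, and of 22 tested none was higher and 6 were lower. Vdr, the vitamin D receptor gene, ran from 60.07 to 189.0 units (median 120.8) in UPPL and from 267.4 to 878.5 units (median 506.3) in BBN, without overlap (log2 difference -2.22, SE 0.27, adjusted p = 4.1e-05). Thra, a thyroid hormone receptor gene, ran from 101.0 to 424.2 units against 257.4 to 988.1 units (-1.33, SE 0.26, adjusted p = 0.0017), and Rara, a retinoic acid receptor gene, from 120.3 to 306.4 units against 195.9 to 446.7 units (-1.03, SE 0.21, adjusted p = 0.0023). The lower count of 6 was 3 without BBN964, BBN972 or BBN975 and under quantile normalization, and 2 without the coarse libraries. Vdr and Thra passed in every fit without 1 tumour.

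Among matrix proteases and their inhibitors, which remodel the tissue around a tumour, 8 of 26 were lower (median log2 difference -1.28), with 7 to 9 in the fits without 1 tumour and 4 without the coarse libraries. Mmp12, the macrophage elastase gene, ran from 24.98 to 334.1 units in UPPL and from 139.9 to 1561 units in BBN (-2.79, SE 0.52, adjusted p = 0.0014). Mmp13, a collagenase gene, ran from 0 to 121.6 units against 30.85 to 1521 units (-3.56, SE 0.86, adjusted p = 0.0072), and Mmp14, a membrane-anchored protease gene, was lower by a log2 difference of -1.03 (SE 0.24, adjusted p = 0.0066). Of 9 fibroblast markers tested, 1 was lower (Col1a1) and none higher, with a median log2 difference of -2.52 over the 9. The fibroblast markers summed to 384.6 to 7578 units (median 2445) in UPPL and 526.2 to 63090 units (median 8932) in BBN, with none of the 10 at 0 throughout either group. The lower count stayed at 1 without BBN963, BBN968 or UPPL1598, was 5 without BBN974 or BBN976 and 4 without UPPL1612, and was 0 without any other single tumour. The part of stromal content in the protease values was not tested.

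Of 26 epithelial cytokine and alarmin genes, 2 were higher and 4 lower, near the shares over all genes (5.71 and 12.8 percent). The counts were 2 to 4 higher and 3 to 5 lower in the fits without 1 tumour. Under the other settings each was 1 to 4. Il1a, an alarmin gene of epithelia, ran from 359.9 to 2244 units (median 1424) in UPPL and from 11.02 to 491.7 units (median 295.4) in BBN (log2 difference 2.55, SE 0.57, adjusted p = 0.0046), and the gene of its inhibitor, Il1rn, was also higher (1.11, SE 0.31, adjusted p = 0.017), although Il1rn failed without the 3 coarse libraries. Csf1, the macrophage growth factor gene, was lower, at 43.06 to 167.1 units against 90.28 to 477.1 units (-1.37, SE 0.35, adjusted p = 0.010). Of 23 chemokine genes 4 were lower (1 with the stricter filter and 2 with edgeR) and none higher (median -1.23). Cx3cl1, a membrane-tethered chemokine gene, ran from 183.0 to 595.4 units in UPPL and from 250.5 to 1868 units in BBN (-1.36, SE 0.35, adjusted p = 0.0096). Cxcr2, a neutrophil chemokine receptor gene, was higher (1.95, SE 0.51, adjusted p = 0.011). The other neutrophil marker tested, Csf3r, had a log2 difference of -1.996 and did not pass (SE 0.95, adjusted p = 0.14).

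General leukocyte markers were lower in 3 of 6 (Ptprc, Laptm5 and Coro1a), with a median log2 difference of -1.504, and summed to 187.5 to 2121 units (median 600.0) in UPPL and 745.3 to 3754 units (median 1507) in BBN. Ptprc, which encodes CD45, ran from 22.61 to 130.4 units against 47.37 to 529.5 units (-1.80, SE 0.43, adjusted p = 0.0067). Hpgds, a prostaglandin D synthase gene of immune cells, was lower at 3.989 to 57.56 units against 39.14 to 159.1 units (-2.44, SE 0.49, adjusted p = 0.0021). The prostaglandin E receptor gene Ptger4 (1.28, SE 0.31, adjusted p = 0.0070) and the cyclooxygenase gene Ptgs1 (1.39, SE 0.40, adjusted p = 0.019) were higher. The part of immune cell content in these values was not tested.

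**Figure D5:**
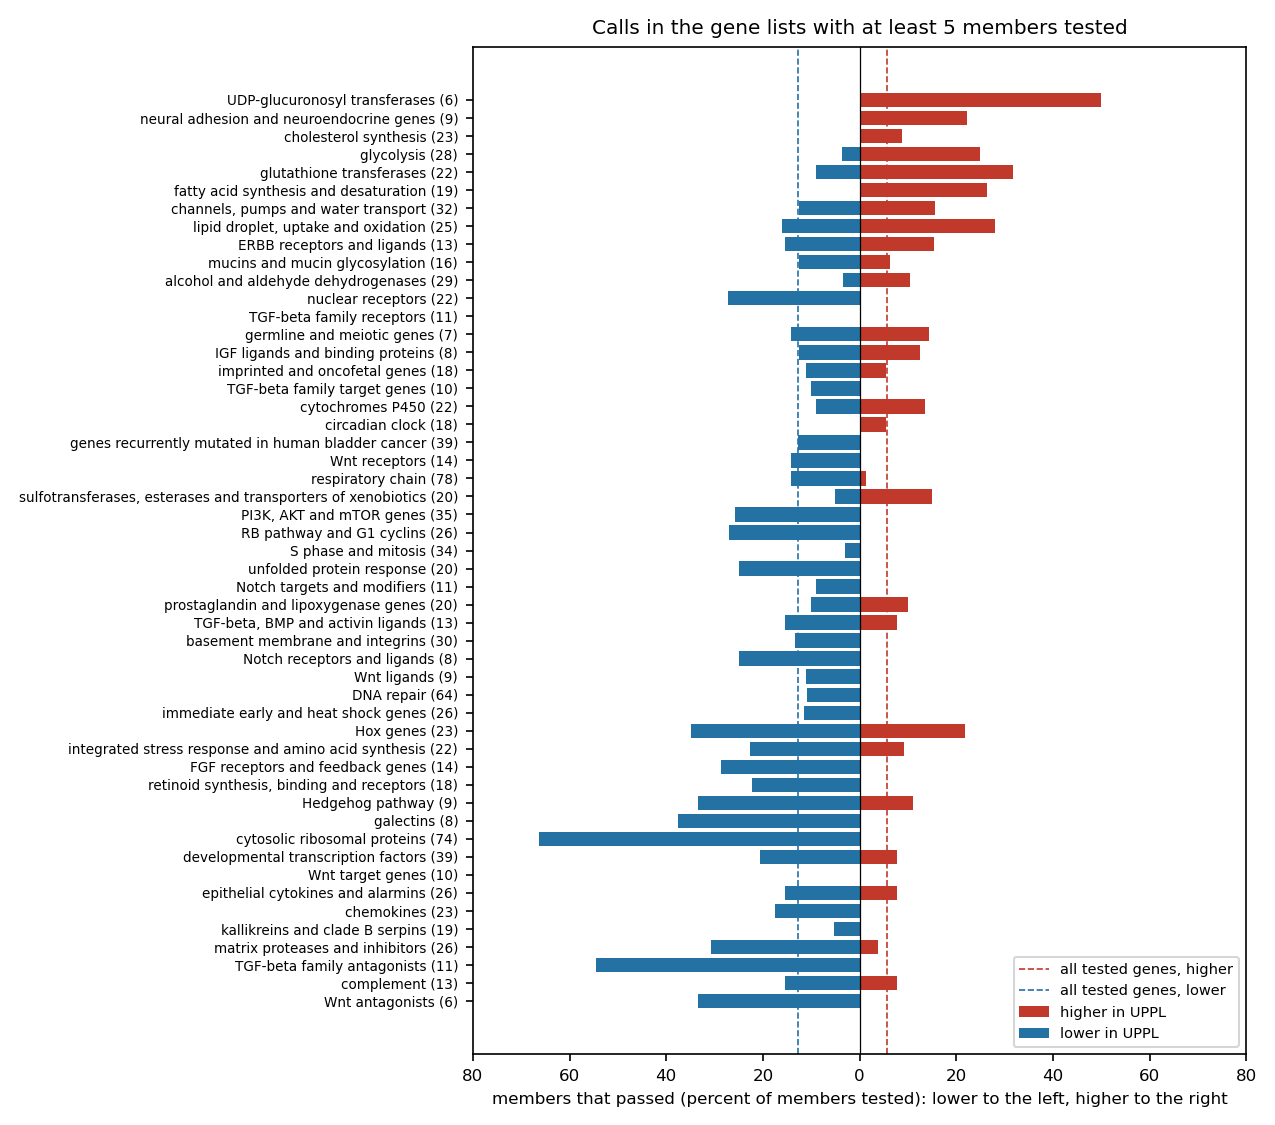
For each of the 51 gene lists with at least 5 tested members (number tested in parentheses), bars give the percent of members that were higher (right, red) or lower (left, blue) in UPPL, in order of the list's median log2 difference. Dashed lines mark the shares over all tested genes, 5.71 percent higher and 12.8 percent lower. Cytosolic ribosomal proteins reach farthest to the left (49 of 74) and UDP-glucuronosyl transferases farthest to the right (3 of 6).

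Lists near the background included basement membrane and integrin genes (4 of 30 lower, 2 without BBN964, BBN972 or BBN975), immediate early and heat shock genes (3 of 26 lower), and 39 genes recurrently mutated in human bladder cancer (5 lower, none higher). The last count was 3 without UPPL1541, UPPL1591 or UPPL1595, 2 without UPPL1597, and 1 with edgeR and under median-of-ratios scaling. Zfp36l1, an RNA-decay factor gene on chromosome 12, led that list, at 2573 to 4202 units in UPPL and 3993 to 10300 units in BBN (log2 difference -0.71, SE 0.15, adjusted p = 0.0031). Endothelial markers gave 1 higher of 8, the junction gene Esam, at 212.8 to 892.7 units against 67.20 to 391.5 units (1.499, SE 0.32, adjusted p = 0.0034). The other 7 did not pass, and the median log2 difference over the 8 was -0.59. Smooth muscle markers summed to 1018 to 51160 units in UPPL and 1240 to 207800 units in BBN, and 0 to 5 of them were lower when 1 tumour was left out. Markers of the male accessory glands summed to at most 6.772 units in UPPL and 241.0 units in BBN.

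Some genes were listed at 0 in every tumour of 1 group and were too rarely above the filter on low values to be tested. The brain and urogenital homeobox gene Emx2 was at 0 in all UPPL tumours and above 0 in 9 of 11 BBN tumours, with a highest value of 582.3 units. Ntrk2, Cntn1 and Ces1d were also at 0 in all UPPL tumours and above 0 in 7, 8 and 6 BBN tumours. Each was high in 1 tumour: Ntrk2 at 1527 units in BBN962, Cntn1 at 978.4 in BBN963 and Ces1d at 3422 in BBN974. The next highest values were 106.5, 124.9 and 288.4 units. Such a pattern was common: 910 genes were listed at 0 in all UPPL tumours and above 0 in BBN, and 432 the reverse. Conversely, Ldoc1 was at 0 in all BBN tumours and above 0 in 6 of 9 UPPL tumours, up to 1747 units in UPPL1694. The melanocyte pigment genes Dct and Tyrp1 were at 0 in all BBN tumours and stood at 1810 and 1559 units in UPPL1597. Tyrp1 was at 0 in every other UPPL tumour, and Dct was above 0 only in UPPL1541 among the others, at 2.392 units.

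The cultures of 1 UPPL and 1 BBN line, set beside the tumours without a test, showed which differences were also found between cells without a tumour around them. Of the 15 largest rises, 12 were higher in the UPPL culture than in the BBN culture, 1 was lower and 2 were equal. Of the 14 large falls described, 9 were lower in the UPPL culture and 5 were higher. Of the Hox genes that passed, those of cluster A were all higher in the UPPL culture. Those of cluster B were all lower, but Hoxb9 only slightly, at 541.5 against 581.5 units. Those of cluster D, lower in the UPPL tumours, were all higher in the UPPL culture, with Hoxd8 at 600.4 against 178.8 units. Chromosome 12 was at -0.09 in the UPPL culture and between -0.39 and -0.29 in the 4 tumours grown from that line, against -0.87 in primary tumour UPPL1541, whose number the line carries.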

How the data were processed

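Tumour RNA was isolated with RNeasy and made into TruSeq Stranded mRNA libraries, per the labels' protocols. Per the submitters' processing notes, which give no roles, RSEM, Picard 1.64 and SAMtools were used with the mm9 build. The authors deposited 1 table of signal values for 21705 genes in 36 columns, scaled in each library to a 75th percentile of 1000 over values above 0. Whether counting used strand is not given in the sources used here. The lowest step of a library was taken as 1 read. By that step 93.26 to 96.32 percent of the primary tumours' values above 0 were whole reads (within 0.02).

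The 20 primary tumours were fitted alone with limma 3.58.1 (variance trend; R 4.3.3) on the log2 scale with a pseudocount of 1. Tested were the 12818 genes that reached, in at least 9 libraries, a floor of 1 percent of the median over libraries of the 75th percentile. Tests were two-sided, with Benjamini-Hochberg adjustment over all of these genes and a threshold of 0.05. Each choice was varied in turn: the pseudocount (10), the filter (none, or 10 percent), the scaling (quantile or median-of-ratios), array weights, the variance trend (none), sex as a covariate, and the tumours entering the fit (without each, without UPPL1541 and BBN963, whose numbers the lines carry, and without the 3 coarse libraries). An edgeR 4.0.16 quasi-likelihood fit of the recovered reads called 1098 genes higher and 893 lower. The grouping by chromosome and the neighbours of Upk3a were chosen after seeing the data.

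Named are Trp53 and Upk3a, the 15 largest rises and falls, the 6 smallest p in each direction, up to 8 genes at 0 throughout 1 group, up to 4 passing members of each list, and up to 4 members of each marker list by highest mean. The rises, falls and smallest p were taken among genes that passed under all 3 scalings and without each tumour and whose mean reached 100 in the group with the larger values. Predicted and clone symbols were skipped. The members, lists and rules were chosen with earlier results of these data known. Chromosomes and gene order come from a RefSeq table of assembly GRCm38.p6, which held 12789 of the 12818 tested genes (99.77 percent) by gene identifier. Its start positions were used only to put genes in order. On data simulated for this comparison (12818 genes), the limma fit found 46 percent of the genes changed 2-fold and 79 percent of those changed 4-fold, with 9 false calls. The simulated noise was normal and independent between genes, and 100 genes were changed at each size. The zeros and chromosome-wide shifts of the real values were not simulated, so these figures need not hold for them. Tables and figures were made with Python 3.11.15, numpy 2.4.6, pandas 2.3.3 and matplotlib 3.10.9. Items that the genotype labels or the naming rule would bring in are not reported here, and none was put in their place.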

Additional observations from a re-analysis of the deposited data

Results flagged for a closer look

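In each of 262 sets of 9 UPPL values (262 genes and chromosomes), the highest and lowest tumour were checked for a gap to the nearest other tumour that was wide against the whole range, and 34 showed one; chance gives about 1 in 20. Groups of 11 were not checked. For genes the gap was taken on the log2(value + 1) scale, on which a 0 lies far from a value of a few units. Values of genes are printed in deposited units.

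UPPL1694 was the lowest tumour, apart from the others, in Kcnu1 (23.98 units), Snap29 (939.1), Fgfbp1 (4.995), Nrg1 (1.998), Il1rn (1435), C5ar1 (0), Itga5 (34.97), Krt5 (10620), Col3a1 (15.98) and Col1a2 (7.992), and the highest in Hoxa9 (1151) and Znrf3 (2170). It also stood lowest on chromosome 11, at -0.377 on the log2 scale. UPPL1595 was lowest in Fzd1 (132.2), Slc1a5 (47.95), Krt19 (3953) and Hbb-b1 (0), and highest on chromosome 5 (0.596 on the log2 scale). UPPL1591 was lowest in the uroplakin genes Upk1a (165.9) and Upk3b (452.6), in Cox4nb (269.8), Kcnk1 (497.7) and Rgs5 (3.386), and on chromosome 8 (-0.541 on the log2 scale).

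UPPL1597 was lowest in Clock (947.7), Xrcc5 (308.4), Ercc5 (143.4) and Coro1a (0). UPPL1597 and UPPL1595 are coarse libraries, so the values of 0 for Coro1a and Hbb-b1 are imprecise. UPPL1612 was highest in Acta2 (12160) and lowest in Esam (212.8). UPPL1598 was highest in Rara (306.4) and lowest on chromosome 13 (-0.723 on the log2 scale), and UPPL1541 was lowest in Brdt (0) and highest in Lipe (357.2). The calls of Snap29, Fzd1, Slc1a5 and Kcnk1 held in every fit that left out 1 tumour.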

How the results depend on the processing

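The number of genes lower in UPPL was 987 under quantile normalization and 893 with edgeR, against 1639. Genes with every UPPL tumour above every BBN tumour numbered 61 under quantile normalization, 68 under median-of-ratios scaling and 75 without the 3 coarse libraries, against 38; those below numbered 28, 30 and 78, against 50. The causes were not tested, except that leaving tumours out leaves fewer chances to overlap by construction. Leaving out 1 tumour gave 580 to 783 genes higher, 1329 to 1764 lower, 38 to 73 above without overlap and 51 to 107 below without overlap. No named gene that passed changed its direction under any alternative run. Of 190 named genes that passed, 30 lost the call in at least 1 fit without 1 tumour. The other 160 passed in every such fit that tested them. Of these, Pax9, Nr2f1 and Ugt2b35 were tested in only 11, 12 and 18 of the 20 fits. The number that no longer passed was 48 with edgeR, 46 without the coarse libraries, 30 without UPPL1541 and BBN963, and 27 under quantile normalization. It was 21 under median-of-ratios scaling, 11 without a filter, 7 with array weights and 6 without a variance trend. It was 4 with sex as a covariate and 1 with a pseudocount of 10. No paired analysis was possible because the UPPL and BBN tumours share no replicate number. Recovered reads of 9.29 to 17.93 M per library, with a most frequent low value of up to 17 reads, leave genes of few reads imprecise. Smaller values did occur in coarse libraries: UPPL1595 listed Cd53 at 1.17 units, its value of 1 read. A value of 0 does not show that a gene was absent.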

Other observations

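The line-derived libraries were compared with the primary tumours only by their values. BBN tumours grown from the BBN963 line had deviations of 0.155 and 0.205 on chromosome 12 and the BBN culture 0.159, on the log2 scale, beside 0.321 in primary tumour BBN963. On chromosome 16 these tumours were at 0.187 and 0.275 and the BBN culture at 0.321, beside -0.51 in BBN963. The UPPL culture was at 0.163 there and the tumours of its line at 0.206 to 0.288, beside 0.498 in UPPL1541. The lines thus overlapped on chromosome 16, where most primary tumours of the models differed. Emx2, listed at 0 in all UPPL primary tumours, stood at 15.87 units in the UPPL culture.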
